A study of Saccharomyces cerevisiae with 2 samples.

Results

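The 9 genes described here encode the mRNA export adaptor Yra1, its relative Yra2, the helicase Sub2, subunits of the THO complex (Hpr1, Mft1, Thp2 and Tex1) and the 2 subunits of the export receptor (Mex67 and Mtr2). They were chosen by name, by a rule that uses no measured value but was set with earlier results of these data known, from 6002 nuclear protein-coding genes of budding yeast, Saccharomyces cerevisiae. RNA:DNA hybrids had been mapped by DRIP-seq, in which the S9.6 antibody, raised against such hybrids, pulls down genomic DNA that was first cut with restriction enzymes. There was 1 immunoprecipitate and 1 input, both from asynchronous cells of strain WRBb-9D in mid-log growth in YPAD medium at 30 ºC. The strain is of mating type a, lacks BAR1, carries a FLAG tag and a KAN marker on RRM3 and holds URA3 with GPD-Tk(7x) at ura3. Its further alleles are trp1-1, ade2-1, his3-11,15, can1-100 and a leu2 allele with the mutations 3 and 112. The labels call it wild type. All values below come from the peak list of the immunoprecipitate, so there is no replicate check on any of them and no test between groups. The depth is unknown, and no peak over a gene means only that none was called there.

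In yeast, the THO complex rides with RNA polymerase II along active genes, and together with Sub2 and Yra1 it forms the assembly known as TREX. Sub2, an ATP-dependent RNA helicase, helps load Yra1 onto the nascent transcript, and Yra1 then hands the finished mRNA to the heterodimer Mex67-Mtr2, which carries it through the nuclear pore. Loss of THO subunits such as Hpr1 is a classic way to raise RNA:DNA hybrid levels and transcription-linked recombination in this organism, and the series title names Yra1 as a protein bound to R loops, the structures in which such a hybrid leaves the other DNA strand unpaired. The question put to the peak list is where peaks were called on the genes of this machinery themselves. A peak here is called S9.6 signal, and neither sample checks that it is a hybrid.

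Of the 9 genes, YRA1 had a peak and the other 8 had none. A gene was called touched when 1 bp or more of it lay inside a peak. The 1 of 9 touched is 11.1% (exact Clopper-Pearson 95% interval 0.281 to 48.2%, which covers counting error only), and the same call was made for 21.2% of all nuclear protein-coding genes. The interval includes that background. No member was covered, that is with at least 50% of its length inside peaks, against 4.42% of all genes (0 of 9, interval 0 to 33.6%). Over the summed length of the 9 genes, 11248 bp, 500 bp lay inside peaks, or 4.45%, and all of these were in YRA1. For all protein-coding genes the share of bases was 7.03%. The median share per gene was 0 in the set and 0 over all genes.

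The flanks of all 9 genes were also free. Neither the 500 bp upstream nor the 500 bp downstream of any member held a peak base, while 13.5% of all genes were touched upstream, 14.7% downstream and 23.4% on either side. The listed gene spans are coding lengths with introns (96.4% of the lengths are multiples of 3), so the flanks include promoter and untranslated sequence. Counting body and flanks together, 8 of 9 members had no peak base. The 1 of 9 touched is 11.1% (interval 0.281 to 48.2%), and 30.6% of all genes were touched in the body or a flank.

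**Figure D1:**
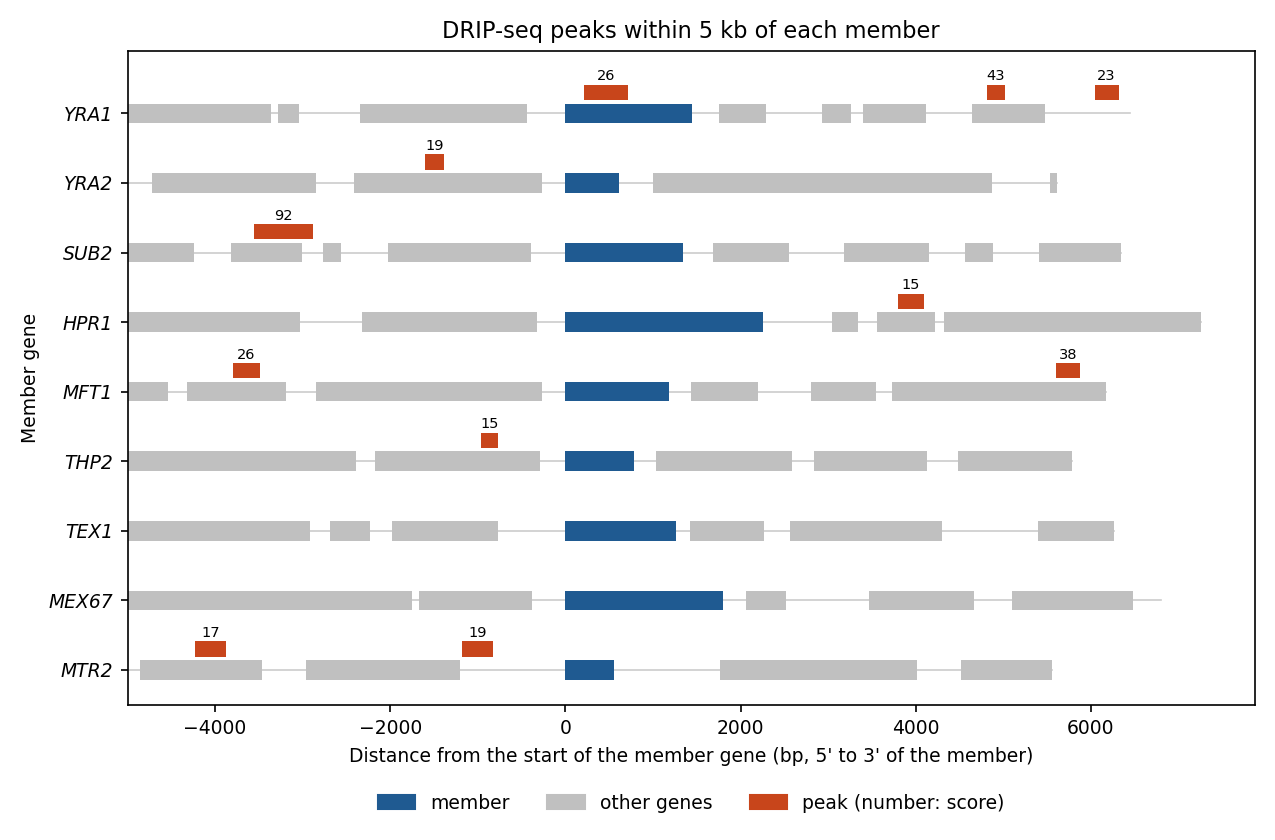
Peaks (red, with the authors' score above) and genes within 5 kb of each of the 9 member genes (blue), drawn by distance in bp from the start of the member and read 5′ to 3′; other genes are grey. Only the bar of YRA1 has a peak above it, and TEX1 and MEX67 have no peak anywhere in the drawn stretch.

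YRA1 (YDR381W; sacCer3 chromosome IV, 1236558 to 1238004, Watson strand) is 1447 bp long in the gene table. Its peak ran from 1236776 to 1237275, which is bases 219 to 718 of the gene counted from its 5′ end, or 15.1% to 49.6% of its length. The 500 bp of this peak took up 34.6% of the gene, all of it before the midpoint. The first 218 bp and the last 729 bp were outside the peak. The summit lay at 1237138, base 581 of the gene, or 40.2% of the way along it. With the gene cut into 10 equal bins, bin 2 was 49.3% inside the peak, bins 3 and 4 were 100% inside, bin 5 was 95.9% inside and the other bins held no peak base.

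YRA1 is one of the few yeast genes with a very long intron, and splicing of that intron is part of the feedback by which Yra1 protein limits its own synthesis. As background, the intron follows a shorter first exon and takes up the middle of the gene. The gene table used here holds no exon boundaries, so how many of the 500 bp are intronic, and whether the summit is, was not measured.

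The YRA1 peak stood close to the middle of the list by score and in the upper range by width. Its score, the authors' own value on a scale not given in the sources used here, was 26, and the median over 1687 nuclear peaks was 24. A higher score was given to 36.4% of nuclear peaks and a lower one to 51.8%, and 199 nuclear peaks shared the score of 26. Of all nuclear peaks, 75.0% were narrower, and the median width was 325 bp. Among the 31 nuclear peaks that were also 500 bp wide, YRA1's own included, the median score was 32 and 9 had a lower score.

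By share of length, 385 of the 6002 genes (6.41%) had more of their span inside peaks than YRA1. All 385 are among the 1274 touched genes, whose median share was 19.9%, with a middle range from 10.2% to 41.3%. Like 753 of the nuclear peaks (44.6%), the YRA1 peak lay wholly inside a single protein-coding gene. A touched body with both 500 bp flanks free, as at YRA1, was found for 7.18% of all genes. Summits in protein-coding genes were counted gene by gene, so that a summit in overlapping genes counted for each. Over these 1091 places the median was 53.4% of the gene length, and 38.2% of them lay nearer to the 5′ end than that of YRA1.

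Among 1713 genes within 25% of the length of YRA1, the peak layout was compared over 12 shares, namely 10 equal bins of the gene and the 500 bp on each side. The 3 nearest genes by Euclidean distance were GPI14, PPQ1 and ALT2. In GPI14, which encodes a mannosyltransferase of GPI anchor synthesis (chromosome X, 460382 to 461593), a peak with a score of 54 covered bases 195 to 669, or 39.2% of the gene. In PPQ1, a protein phosphatase gene (chromosome XVI, 208157 to 209806), a peak with a score of 21 covered bases 195 to 744, or 33.3%. In ALT2, related to the alanine transaminase gene ALT1 (chromosome IV, 678241 to 679764), a peak with a score of 27 covered bases 340 to 789, or 29.5%. The distances were 53.1, 55.8 and 57.1 percentage points, against 178 for a gene with no peak in body or flanks, and 90 of the 1713 genes were nearer than that. The likeness is one of the stretch inside peaks in 1 library, and summits were not compared. They lay at 35.6% of the gene in GPI14, 12.5% in PPQ1 and 46.1% in ALT2, against 40.2% in YRA1. The nearest tRNA gene lay 386 bp from PPQ1, and whether it bears on that peak was not tested.

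**Figure D2:**
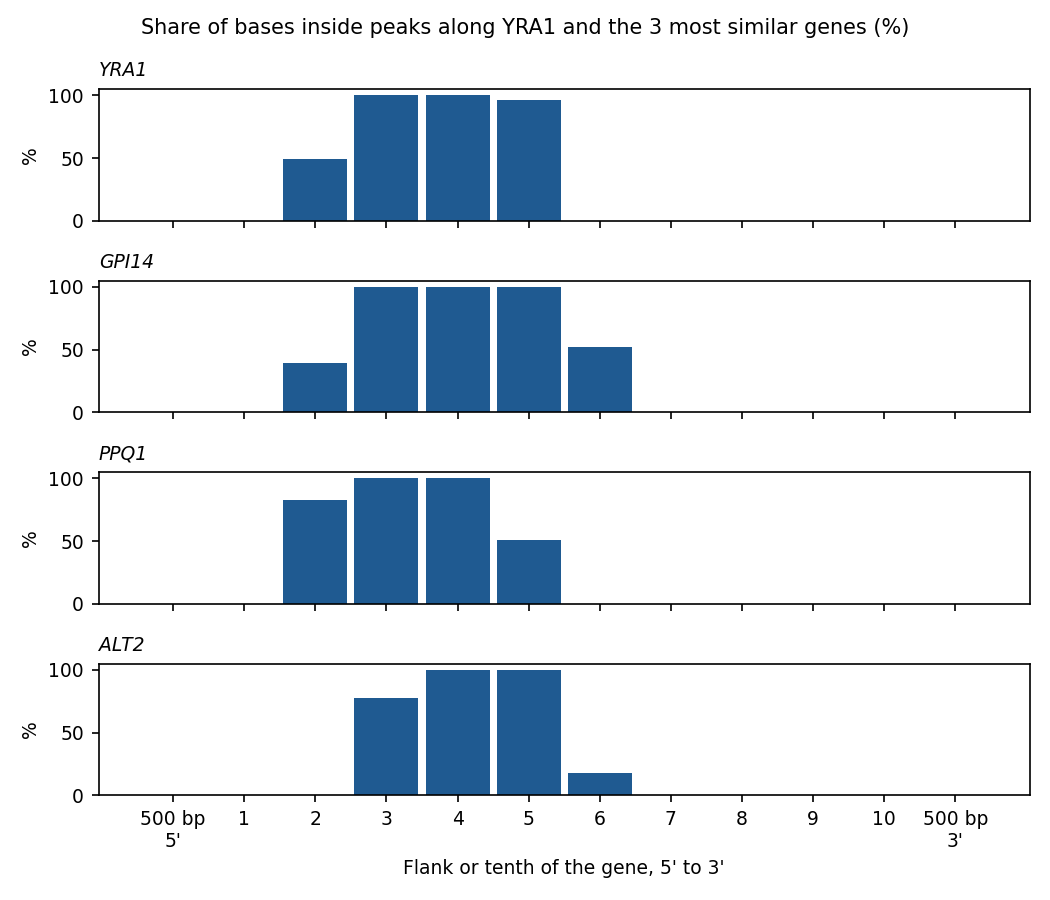
Share of bases inside peaks (%, vertical axis) in the 500 bp before the gene, each of 10 equal bins of the gene read 5′ to 3′ and the 500 bp after it, for YRA1 and the 3 genes with the most similar layout. All 4 have 1 block of bins inside a peak, which starts in bin 2 or 3 and ends in bin 5 or 6, and empty flanks, with 34.6% of YRA1 and 29.5% to 39.2% of the other genes inside peaks.

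YRA2 (YKL214C; chromosome XI, 31082 to 31693, 612 bp, Crick strand) encodes the second Yra1-type RNA-binding protein of yeast, which can stand in for Yra1 when overproduced. It had no peak in body or flanks. The nearest peak (33076 to 33300, score 19) lay 1383 bp upstream, inside DOA1, the adjoining gene, which encodes a ubiquitin-binding cofactor of Cdc48. That peak took up 10.5% of DOA1. YRA2 lies 31.1 kb from the left end of its chromosome.

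SUB2 (YDL084W; chromosome IV, 305237 to 306577, 1341 bp), the helicase gene, had no peak either. The nearest one was 2887 bp upstream (301676 to 302350, score 92), beyond its neighbour NDE2 and over YDL086W. At 92 this was the highest score of the peaks within 5 kb of any member. NDE2, a mitochondrial NADH dehydrogenase gene, and RPS16B, a ribosomal protein gene on the other side, were also without a peak.

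None of the 4 THO members was touched, beside 21.2% of all genes, and a group of 4 is too small to be told from that share. HPR1 (YDR138W; chromosome IV, 730578 to 732836), at 2259 bp the longest member, had its nearest peak 1540 bp past its 3′ end, in MTQ2 (734376 to 734675, score 15). MFT1 (YML062C; chromosome XIII, 147505 to 148683) had its nearest peak 3493 bp upstream (152176 to 152475, score 26), in OGG1, past the adjoining gene PIF1, which encodes a DNA helicase and had no peak. THP2 (YHR167W; chromosome VIII, 439342 to 440127) had the closest peak of the untouched members, 767 bp upstream (438376 to 438575, score 15). It lay in the body of the divergent gene CDC23, a subunit gene of the anaphase-promoting complex, over bases 476 to 675 of its 1881 bp, and the 291 bp between the gene starts held no peak base. TEX1 (YNL253W; chromosome XIV, 170018 to 171286) was the member farthest from a peak, at 16843 bp.

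The 2 genes of the export receptor had no peak, beside 21.2% of all genes touched, and are likewise too few to be told from that share. MEX67 (YPL169C; chromosome XVI, 229039 to 230838, 1800 bp), the large subunit, had none within 11888 bp. MTR2 (YKL186C; chromosome XI, 92744 to 93298), at 555 bp the shortest member, had one 828 bp upstream (94126 to 94475, score 19). That peak lay wholly in the 1200 bp gap between MTR2 and the divergent gene ASH1, which encodes a repressor of mating-type switching, and ended 24 bp short of the start of ASH1. It was the only peak in the 18 gaps that adjoin the 9 members. The share of all gaps between genes that hold a peak was not computed, so this count has no background beside it.

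Of the 18 genes adjoining a member, 2 were touched, DOA1 and CDC23, against 21.2% of all protein-coding genes. The other 16 were ARO10 and COI1 beside YRA1, OXP1 beside YRA2, NDE2 and RPS16B beside SUB2, RGP1 and RUB1 beside HPR1, RPS1B and PIF1 beside MFT1, MTG2 beside THP2, RTC4 and MRPL17 beside TEX1, DAP1 and MRX4 beside MEX67, and FAT3 and ASH1 beside MTR2. Of the stretch from 5 kb before to 5 kb after the gene, the gene included, 8.52% was inside peaks at YRA1, 6.63% at MTR2, 5.95% at SUB2 and 5.14% at MFT1. It was 2.45% at HPR1, 2.12% at YRA2, 1.85% at THP2 and 0% at TEX1 and MEX67. The median of this value over all protein-coding genes was 3.27%, so 4 members were above it. A stretch with no peak at all, as at TEX1 and MEX67, was found for 27.7% of all genes. The distance from a member to its nearest peak had a median of 1540 bp, and over all genes 2016 bp. No member had a tRNA gene within 5 kb, and the nearest such gene, at MTR2, was 8453 bp away.

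Of 39 other genes of mRNA export and RNA:DNA hybrid metabolism, 13 were touched (33.3%, exact 95% interval 19.1 to 50.2%), against the 21.2% of all genes, and 26 were not. These genes are longer, with a median of 1734 bp against 1200 bp over all genes and 1269 bp in the set of 9. Longer genes were touched more often: 34.4% of the genes longer than HPR1 had a peak, and 18.5% of the rest. Of the 39, 8 of the 16 longer than HPR1 were touched and 5 of the other 23. CBC2 was the 1 gene of the 39 covered at 50% or more (2.56%), against 4.42% of all genes.

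THO2 (chromosome XIV, 360924 to 365717), the largest THO subunit gene, was the 1 of 5 THO genes with a peak, so that 2 of the 7 TREX genes were touched, beside 21.2% of all genes. At 4794 bp it belongs to the genes longer than HPR1, of which 34.4% were touched. It held one over bases 293 to 517 (score 15) and another over bases 4318 to 4667 (score 32), near its 3′ end, together 575 bp. In PCF11, a cleavage factor gene whose product binds Yra1 in yeast, a peak with a score of 29 took up 10.6%. TOM1, which encodes a ubiquitin ligase that acts on Yra1, had 2 peaks with scores of 15 and 7.14% of its 9807 bp inside them.

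Among RNA-binding proteins, CBC2, the small subunit of the nuclear cap-binding complex (chromosome XVI, 212158 to 212784), had 58.7% of its 627 bp inside a peak with a score of 52, which began 82 bp before the gene and had its summit at base 81. NAB2, a poly(A)-binding protein gene (chromosome VII, 278946 to 280523), had 30.4% inside a peak with a score of 61 at its 3′ end, which ran 20 bp past the gene. The 3 SR-like adaptor genes (NPL3, GBP2 and HRB1), the 5 genes of the TREX-2 complex and the 3 genes of the last step of export (DBP5, GLE1 and GFD1) had none touched. Over all genes 21.2% were touched, and groups of 3 or 5 are too small to be told from that share. Of 8 pore and basket genes, 3 were touched, beside the same 21.2% of all genes. NUP116 had 19.4% inside a peak with a score of 26, NUP2 10.2% at its 5′ end (score 52, summit 129 bp before the gene) and NUP159 4.56% (score 15). The nearest tRNA gene lay 229 bp from NUP116, 181 bp from NUP2 and 26322 bp from NUP159. Whether a nearby tRNA gene bears on these peaks was not tested.

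Of 6 genes for hybrid removal and DNA topology, TOP1, the topoisomerase I gene, had 15.2% inside a peak with a score of 19, and the RNase H genes RNH1, RNH201, RNH202 and RNH203 had none in the body. A peak reached 67.8% of the 500 bp upstream of RNH203. The nearest tRNA gene lay 336 bp from RNH203, and whether it bears on that peak was not tested. Of 6 helicase genes, 4 were touched. These are long genes, from 2172 to 4344 bp, and all but RRM3 are longer than HPR1. The share touched was 21.2% over all genes, 34.4% over those longer than HPR1 and 18.5% over the rest. DBP2 (chromosome XIV, 413639 to 416281) is the gene of an RNA helicase that binds Yra1, and it also contains an unusually long intron. It had 45.4% inside a single peak of 1200 bp with a score of 53, over bases 238 to 1437. Whether any of that peak is intronic was not measured. RRM3, a DNA helicase gene and the one tagged in this strain (chromosome VIII, 170799 to 172970), had 42.4% inside a peak of 2850 bp with a score of 71, which covered its first 920 bp and ran 1930 bp upstream of it. Whether the tag and its marker bear on that peak was not tested. MPH1 had 10.9% and SGS1 6.91% inside peaks, with scores of 21 and 26. The 3 longest genes without a peak were SEN1, the hybrid-unwinding helicase gene (6696 bp), MLP1 (5628 bp) and MLP2 (5040 bp), both of the nuclear basket.

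**Figure D3:**
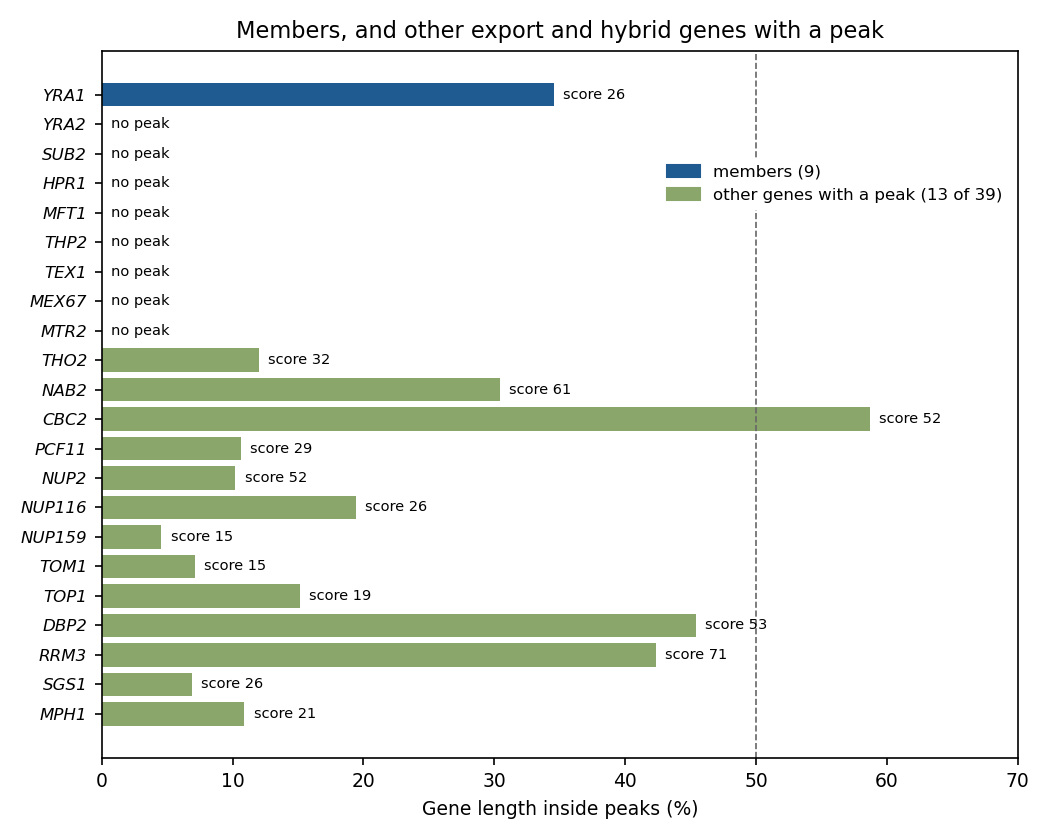
Share of gene length inside peaks (%, horizontal axis) for the 9 members (blue) and for the 13 of 39 other export and hybrid genes that had a peak (green), with the highest peak score of each gene; the dashed line marks 50%. YRA1, at 34.6%, is the only member with a bar, and CBC2, at 58.7%, is the only gene past the line.

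YRA1 and DBP2, both with a peak that starts a little over 200 bp into the gene, differed in extent, 500 bp against 1200 bp, and in score, 26 against 53. The 500 bp upstream held no peak base at YRA1 and was 60% inside other peaks at DBP2. The summits lay at 40.2% and 38.8% of the gene length, but at base 581 and base 1025. This place was not particular to the pair, with summits at 36.4% in TOM1, 35.7% in TOP1 and 33.9% in SGS1. The other summits ranged from 129 bp before NUP2 to 96.1% of the length of THO2. Of the 15 peaks over the 39 genes, 11 lay wholly inside the gene, as at YRA1, and 14 had their summit in it. Of all nuclear peaks 44.6% lay wholly inside 1 gene, a share that includes peaks over no gene. Like shares over the peaks that touch any gene were not computed. The median score of the 15 was 26, and 9 of them scored 24 or more, where 24 is the median over all nuclear peaks. With 1 library, none of these differences in score or extent has an error.

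**Figure D4:**
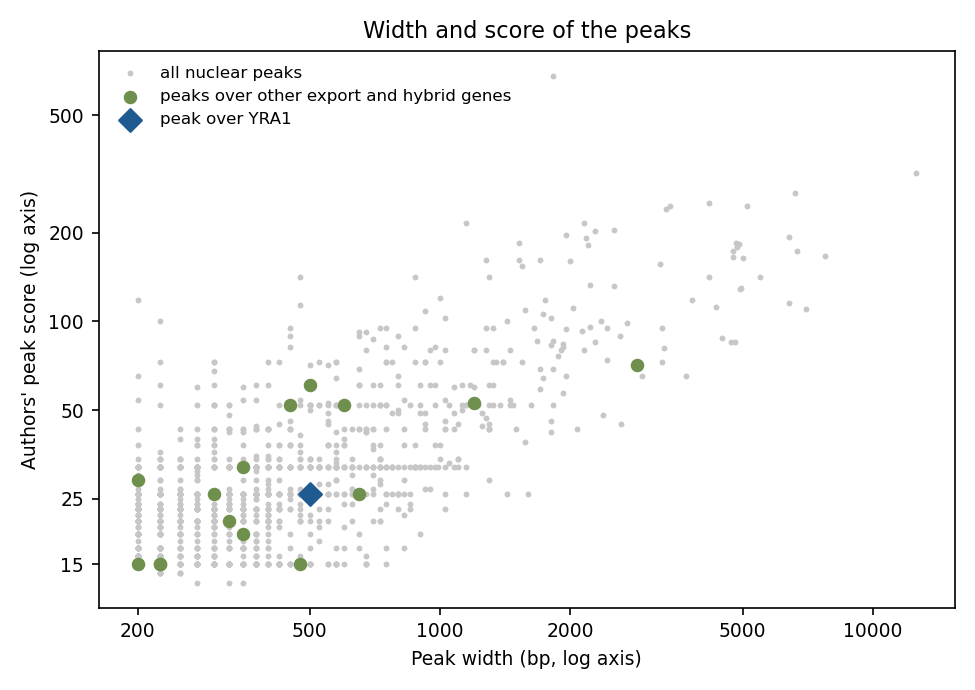
Authors' peak score against peak width in bp (both axes logarithmic) for all nuclear peaks (grey), the peaks over the other export and hybrid genes (green) and the peak over YRA1 (diamond). The YRA1 peak sits at 500 bp and a score of 26, within the cloud of nuclear peaks, and the widest marked peak is that over RRM3 at 2850 bp.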

How the data were processed

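Per the labels' protocols, spooled genomic DNA was cut with restriction enzymes, immunoprecipitated with S9.6, and amplified across the genome together with its input before sequencing on an Ion Torrent PGM. The submitters' processing notes name the build sacCer3, MACS2 2.1.1.20160309 and SAMtools 1.7. No aligner, peak threshold or way of using the input is stated in the sources read. Restriction fragments and amplification limit how finely a peak can be placed. The deposited peak list gives each of 1687 nuclear peaks a whole-number score, from 13 to 679, and other values such as a summit. It was deposited for 1 library, without pooling. Peak starts fall on a grid of 25 bp, and no nuclear peak is under 200 bp. Its columns of fold enrichment, p and q contain nothing but 0 and were left out, and depth is unknown.

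Genes came from a RefSeq table of the R64 assembly, the sacCer3 sequence. All 9 members and all 39 other genes matched by symbol, and strands were read from systematic names. Coordinates are 1-based. Shares were computed with Python 3.11.15, pandas 2.3.3 and numpy 2.4.6, and exact intervals with scipy 1.17.1. The code was tested on planted intervals with known shares and positions, all of which it recovered. No genome, exons or sequences were used, so the planned promoter motif search was not run. The members and lists were chosen with earlier results of these data known. The genes named are the members, their neighbours, all touched genes and the 3 longest untouched genes of the 39, and the 3 genes most like YRA1; untouched genes named with their groups were chosen after their values were seen. Alternatives were peaks scoring 24 or more, 200 bp around summits, other overlaps of 10%, 25% or 90%, and flanks of 250 or 1000 bp.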

Additional observations from a re-analysis of the deposited data

How the results depend on the processing

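YRA1 remained the 1 member of 9 touched with peaks scoring 24 or more, with 200 bp around summits and with at least 10% or 25% of the length required. The values given above fix these outcomes, so they are no check on the result. The YRA1 peak scored 26, had its summit inside the gene and took up 34.6% of it, and no other member had a peak within 500 bp. The corresponding shares of all genes were 11.5%, 18.2%, 16.0% and 8.96%. With 25% of the length in place of 50%, 1 member counted as covered in place of 0. With flanks of 1000 bp in place of 500 bp, 2 members (THP2 and MTR2) had a peak in a flank in place of 0, when 31.6% of all genes did. YRA1 was 13.8% inside the 200 bp around its summit, a value fixed by the window. Of the 39 other genes, 13 were touched, 9 with peaks scoring 24 or more, 12 around summits, 10 at an overlap of 10% and 4 at an overlap of 25%. Among genes as long as the members (555 to 2259 bp), 20.0% were touched. Read depth is unknown, so how far it limits the calls cannot be given. No paired analysis was possible because the values come from 1 peak list.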
